A study of Canis lupus familiaris with 6 samples.

Results

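Most genes described here export cholesterol, store it as esters, carry it out of the lysosome, or sense it as liver X receptors (LXRs). LPCAT3, MYLIP and SMPDL3A have other roles and are among the known LXR targets. The 10 genes are NR1H2, NR1H3, ABCA1, ABCG1, MYLIP, LPCAT3, SMPDL3A, SOAT1, NPC1 and NPC2. They were taken by symbol from the deposited expression table, and all 10 genes had a row among its 20500 rows. NPC2 had a pair of rows, so the genes filled 11 rows. The samples were polyA RNA-seq libraries of HU-HSA-2 cells, a dog line grown from hemangiosarcoma, which is a cancer of the vessel lining. GNE140 cells (3 libraries) were given (R)-GNE-140, a small-molecule inhibitor of lactate dehydrogenase, for 72 hours, and control cells (3 libraries) were given the solvent DMSO under the same protocol. Both groups were grown in DMEM with fetal bovine serum, which can itself supply lipoprotein cholesterol. All libraries come from a single cell line, and no dose is given in the labels.

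Cells keep free cholesterol within narrow limits. When it accumulates, oxidised forms of it bind the LXRs, which act as pairs with the retinoid X receptors (RXRs) and switch on genes that export cholesterol, slow its uptake and remodel membrane phospholipids. Excess cholesterol can also be esterified and kept in lipid droplets, while cholesterol taken up with lipoproteins has to leave the lysosome before it can be sensed. In endothelial cells and macrophages ABCA1 and ABCG1 are the best known export pumps of this pathway.

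Of the 10 genes, LPCAT3 was the only gene that passed the test, and it fell after (R)-GNE-140. Of the 9 genes with a tested row, 0 rose, 1 fell and 8 did not pass the test (limma on log2(TPM + 1), Benjamini-Hochberg adjusted p under 0.05). Over all 10874 rows tested, 3.03% were called, 1.31% as higher and 1.72% as lower. The 9 log2 differences had a median of -0.032, against 0.0040 for all rows tested. Of the 9, 5 were below 0, as were 48.9% of all rows tested. TPM, the deposited unit, is an abundance scaled to transcript length and library total, so levels can be compared between genes, but it keeps no read depth, and the precision of a value rests on the spread of 3 libraries. Whether the replicates were separate cultures is not stated, so p-values measure the spread between these libraries, which may be technical.

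**Figure D1:**
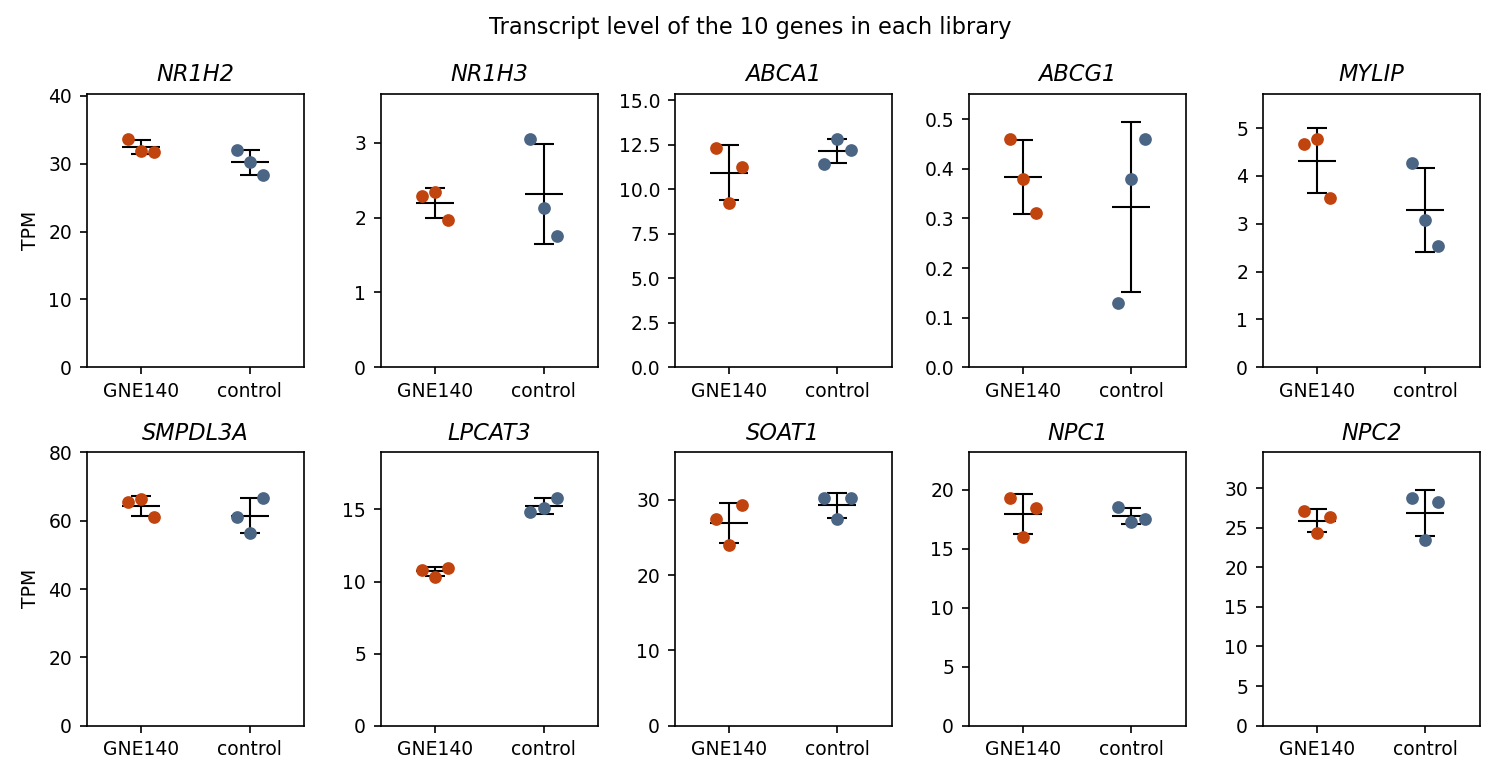
TPM of each gene (vertical axes, from 0, a scale for each gene) in the 3 GNE140 libraries, left, and the 3 control libraries, right; the points are libraries and the bars are the mean ± SD. The LPCAT3 points lie between 10.3 and 11.0 TPM in GNE140 libraries and between 14.8 and 15.8 TPM in control libraries, while the points of each other gene overlap between the groups; for NPC2 the more abundant row is drawn.

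The level of these transcripts spanned a wide range. SMPDL3A was highest at 56.5 to 66.8 TPM over the 6 libraries, above 78.3% of the rows tested. NR1H2 (28.4 to 33.6 TPM), SOAT1 (24.0 to 30.3 TPM) and the more abundant NPC2 row (23.5 to 28.8 TPM) followed, and each overlapped its neighbour in this order. NPC1 ran from 16.0 to 19.4 TPM, below every value of that NPC2 row. LPCAT3 (10.3 to 15.8 TPM) and ABCA1 (9.24 to 12.8 TPM) overlapped each other, as did MYLIP (2.53 to 4.77 TPM) and NR1H3 (1.75 to 3.05 TPM). ABCG1, under 1 TPM, was low in every library.

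The libraries resembled each other closely, with correlations across genes of 0.990 to 0.993 within groups and 0.987 to 0.991 between groups. More genes reached 1 TPM in the GNE140 libraries (10881 to 10970) than in the control libraries (10755 to 10850). The vessel cell origin was checked with 12 marker genes, and 11 of them had a mean of at least 1 TPM. PECAM1, an endothelial adhesion molecule, averaged 317 ± 15.2 TPM in GNE140 cells and 347 ± 14.7 TPM in control cells (SD, n = 3 each), while the clotting factor gene VWF was under 0.1 TPM in both groups on average. The summed endothelial markers were 1331 to 1433 TPM in GNE140 libraries and 1518 to 1699 TPM in control libraries, which do not overlap. This sum rests mostly on abundant genes such as CLDN5, at 625 ± 40.1 TPM in GNE140 cells and 758 ± 93.4 TPM in control cells. FLT1 went the other way, at 4.41 ± 0.366 TPM in GNE140 cells and 2.80 ± 0.507 TPM in control cells (SD, n = 3 each). Of the 11 tested markers, 4 did not overlap between the groups, against 23.1% of all rows tested. The test was passed by 0 of the 11, and 4 had an unadjusted limma p under 0.05 (1 higher, 3 lower), against 17.9% of all rows tested. The 6 fibroblast and mural markers summed to 5.95 to 7.96 TPM in GNE140 libraries and 4.10 to 5.14 TPM in control libraries, also apart. Of them, 4 had a mean under 1 TPM over the 6 libraries. The other 2, COL1A1 and PDGFRA, were higher in GNE140 libraries but did not pass the test (limma adjusted p = 0.134 and 0.250). The 7 markers of macrophages and other blood cells, cells known for high LXR activity, summed to 2.75 to 4.61 TPM in GNE140 libraries and 3.08 to 3.36 TPM in control libraries, and 6 of them had a mean under 1 TPM over the 6 libraries. The part of these differences in marker sums and in detection in the LPCAT3 fall and the results below was not tested. In bulk RNA, fewer cells of a type and less RNA per cell cannot be told apart.

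The sensors themselves were present mainly as NR1H2, which encodes LXR beta, the widely expressed receptor. NR1H2 (ENSCAFG00845018363) was at 33.6, 32.0 and 31.8 TPM in GNE140 libraries and at 32.1, 30.3 and 28.4 TPM in control libraries. The groups overlapped, with the highest GNE140 library only slightly above the highest control. The log2 difference was 0.10 (95% interval -0.045 to 0.25, limma adjusted p = 0.482), and 0.056 without control replicate 3. NR1H3 (ENSCAFG00845024090), which encodes LXR alpha, the receptor of liver, fat and macrophages, was at 2.29, 2.34 and 1.97 TPM in GNE140 libraries and at 3.05, 2.13 and 1.75 TPM in control libraries. The controls enclosed all GNE140 values, and the log2 difference was -0.032 (95% interval -0.40 to 0.34, limma adjusted p = 0.946). Control replicate 1 stood highest of the 6, and the sign turned without it (0.12) and without GNE140 replicate 3 (0.021).

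Within a library the ratio of NR1H2 to NR1H3 was 14.8 ± 1.25 in GNE140 cells and 13.6 ± 2.89 in control cells (SD, n = 3 each). This balance did not differ beyond its spread (exact 2-sided permutation p = 0.7, where the smallest possible is 0.1). RXR partners and LXR cofactors formed a list of 13 genes, of which 12 had a row and 10 were tested. Of these, 0 rose or fell (limma, adjusted p under 0.05), against 3.03% of all rows tested called. At an unadjusted limma p under 0.05 the list also had 0, against 17.9% of all rows tested. In a list this short, a count of 0 called is near the share over all rows. The list's median log2 difference was -0.055. PPARG, a fat cell nuclear receptor that also pairs with RXR, had the smallest p of the list at 1.91 ± 0.307 TPM in GNE140 cells and 1.28 ± 0.439 TPM in control cells (SD, n = 3 each), with a log2 difference of 0.36 and a limma adjusted p of 0.349; the difference was 0.20 without control replicate 1. The coactivator NCOA6 followed with a log2 difference of -0.12 (limma adjusted p = 0.405).

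The export pumps showed no call. ABCA1 (ENSCAFG00845010374), which loads cholesterol and phospholipid onto lipid-poor apolipoproteins, was at 12.3, 9.24 and 11.3 TPM in GNE140 libraries and at 11.4, 12.8 and 12.2 TPM in control libraries. GNE140 replicate 2 was the lowest of the 6, and the other GNE140 values lay within or next to the control range. The log2 difference was -0.15 (95% interval -0.38 to 0.088, limma adjusted p = 0.522). It was -0.042 without GNE140 replicate 2 and -0.23 without GNE140 replicate 1. ABCG1 (ENSCAFG00845030427), which passes cholesterol to mature HDL, was at 0.46, 0.38 and 0.31 TPM in GNE140 libraries and at 0.13, 0.38 and 0.46 TPM in control libraries. Its groups overlapped fully, and at this level it was left out of the test across genes (exact 2-sided permutation p = 0.9 on the TPM, smallest possible 0.1).

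A list of 12 other efflux and HDL genes gave the same count of 0 called (limma, adjusted p under 0.05), against 3.03% of all rows tested. 11 had a row, 8 had a mean under 1 TPM over the 6 libraries and 3 were tested, with a median log2 difference of -0.0099. Of the 3, 1 was lower at an unadjusted limma p under 0.05, against 17.9% of all rows tested in either direction. That gene was SCARB1, the HDL receptor, at 39.3, 32.7 and 32.2 TPM in GNE140 libraries and 36.9, 45.4 and 46.1 TPM in control libraries. GNE140 replicate 1 lay above control replicate 1, so the groups overlapped, and the log2 difference of -0.29 did not pass (limma adjusted p = 0.163). TTC39B, which lowers LXR levels in mouse, was at 2.97 ± 0.234 TPM in GNE140 cells and 2.79 ± 0.359 TPM in control cells (SD, n = 3 each), with a log2 difference of 0.069 (limma adjusted p = 0.840). It ran from 0.020 without control replicate 1 to 0.15 without control replicate 2.

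**Figure D2:**
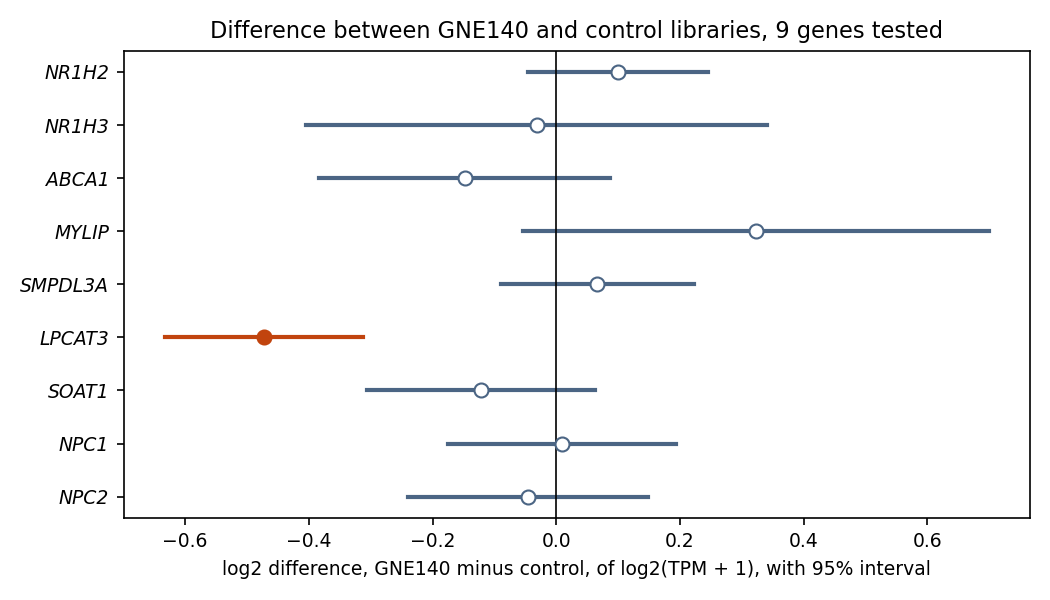
Difference between GNE140 and control libraries in log2(TPM + 1) for the 9 tested genes; points are limma estimates and lines their 95% intervals, with the filled point passing an adjusted p of 0.05. Only the LPCAT3 interval, -0.63 to -0.31, lies away from 0, and the MYLIP and NR1H3 intervals are the widest.

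Of LPCAT3, MYLIP and SMPDL3A, which are among the known LXR targets, LPCAT3 fell and the other two did not pass. LPCAT3 (ENSCAFG00845025601) encodes an acyltransferase of the endoplasmic reticulum that puts polyunsaturated fatty acids into membrane phospholipids, and it is an LXR target in mouse. It was at 10.8, 10.3 and 11.0 TPM in GNE140 libraries and at 14.8, 15.1 and 15.8 TPM in control libraries. The groups lay well apart, and each was tight, with a coefficient of variation of 3.13% in GNE140 cells and 3.50% in control cells. LPCAT3 averaged 10.7 ± 0.335 TPM in GNE140 cells and 15.2 ± 0.533 TPM in control cells (SD, n = 3 each), a TPM ratio of 0.702. The log2 difference was -0.47 (SE 0.071, 95% interval -0.63 to -0.31, limma adjusted p = 0.0135), and its p ranked 64 among the 10874 rows. Groups did not overlap in 23.1% of the rows tested, and in 11.8% the GNE140 values were all lower.

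The LPCAT3 fall did not hang on a single library in size, though its adjusted p moved close to the threshold. With each library left out in turn the log2 difference ran from -0.49 to -0.45, and the call was kept in 6 of 6 fits with limma adjusted p up to 0.0499. When the filter on low values was kept as set on all 6 libraries, an alternative chosen after seeing the data, the adjusted p was 0.0503 without GNE140 replicate 3 and 0.0621 without control replicate 1. EMG1, a ribosome biogenesis gene next to LPCAT3 in the RefSeq annotation of the dog assembly UU_Cfam_GSD_1.0, was at 70.1 ± 4.31 TPM in GNE140 cells and 74.6 ± 2.16 TPM in control cells (SD, n = 3 each). Its log2 difference of -0.090 did not pass (limma adjusted p = 0.484), and the annotation shows no gene that overlaps LPCAT3. C1S, a complement protease gene on the other side, was at 0.1 TPM or below on average in both groups.

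MYLIP (ENSCAFG00845024271), also called IDOL, encodes a ubiquitin ligase that limits the uptake of lipoproteins. It was at 4.66, 4.77 and 3.53 TPM in GNE140 libraries and at 4.26, 3.07 and 2.53 TPM in control libraries. GNE140 replicates 1 and 2 were the highest of the 6, but control replicate 1 lay above GNE140 replicate 3. The log2 difference was 0.32 (95% interval -0.053 to 0.70, limma adjusted p = 0.357), an interval about as wide as that of NR1H3. It ran from 0.19 without control replicate 3 to 0.48 without control replicate 1.

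SMPDL3A (ENSCAFG00845009539), a secreted phosphodiesterase that is an LXR target in human macrophages, was at 65.6, 66.4 and 61.0 TPM in GNE140 libraries and at 61.2, 56.5 and 66.8 TPM in control libraries. The highest and lowest values were both controls. Its log2 difference was 0.067 (95% interval -0.089 to 0.22, limma adjusted p = 0.683). It was 0.0088 without control replicate 2 and 0.13 without control replicate 3. In the RefSeq annotation SMPDL3A, ABCG1 and NPC1 each overlap another gene. Those over SMPDL3A and ABCG1 are long noncoding RNAs with no row under their RefSeq symbols, while the gene over NPC1 has a row. How the authors' counting shared reads of overlapping genes is not stated, which makes the values of SMPDL3A, ABCG1 and NPC1 less certain. RMC1, the gene that overlaps NPC1, was at 40.4 ± 0.930 TPM in GNE140 cells and 39.0 ± 1.98 TPM in control cells (SD, n = 3 each).

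Ratios within a library restate the LPCAT3 fall on the scale of the other genes and are a description. The ratio of LPCAT3 to ABCA1 was 0.879, 1.12 and 0.974 in GNE140 libraries and 1.29, 1.18 and 1.30 in control libraries. LPCAT3 exceeded ABCA1 in 1 of 3 GNE140 libraries and in 3 of 3 control libraries. Relative to NR1H2 the ratio was 0.330 ± 0.0130 in GNE140 cells and 0.506 ± 0.0488 in control cells (SD, n = 3 each). Of the 8 ratios of LPCAT3 to another tested gene, 7 were lower in every GNE140 library than in every control library, and the ratio to NR1H3 overlapped. Each of the 7 had an exact 2-sided permutation p of 0.1, the smallest this design allows, and 0.157 after adjustment over the 11 ratios computed, so none passed a threshold of 0.05. These ratios share LPCAT3 and are not independent of it or of each other.

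**Figure D3:**
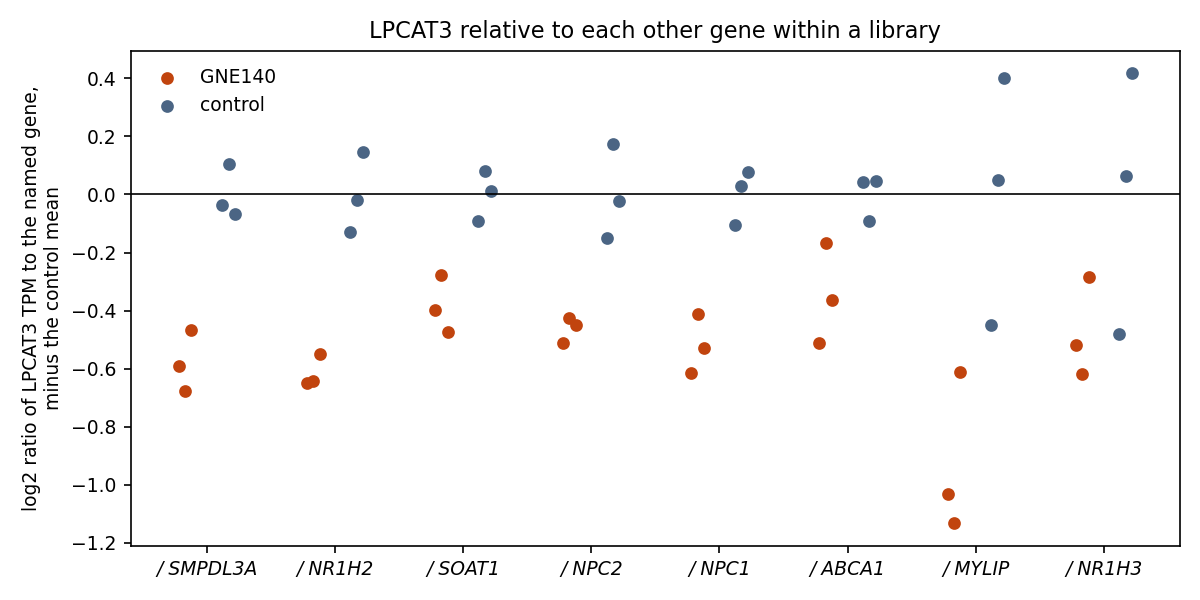
Log2 ratio of LPCAT3 TPM to that of each other tested gene (horizontal axis) within a library, minus the control mean of that ratio; GNE140 libraries are on the left and control libraries on the right of each pair. GNE140 points lie below all control points for 7 of the 8 genes, and overlap with them for NR1H3.

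None of SOAT1, NPC1 and NPC2, the storage and lysosomal export genes, passed the test. SOAT1 (ENSCAFG00845005946), which esterifies cholesterol for storage in droplets, was at 27.4, 24.0 and 29.3 TPM in GNE140 libraries and at 30.3, 27.4 and 30.2 TPM in control libraries. GNE140 replicate 2 was the lowest library, and the other values were interleaved. Its log2 difference was -0.12 (95% interval -0.31 to 0.062, limma adjusted p = 0.500). It was -0.046 without GNE140 replicate 2 and -0.18 without GNE140 replicate 3. The ratio of SOAT1 to ABCA1, storage against export, was 2.48 ± 0.215 in GNE140 cells and 2.42 ± 0.259 in control cells (SD, n = 3 each, exact 2-sided permutation p = 0.7, smallest possible 0.1). The sign of this difference turned without GNE140 replicate 2, without GNE140 replicate 3 and without control replicate 2.

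NPC1 (ENSCAFG00845014993), the membrane protein that moves cholesterol out of the lysosome, was at 19.4, 16.0 and 18.5 TPM in GNE140 libraries and at 18.6, 17.3 and 17.5 TPM in control libraries. Both the highest and the lowest value were GNE140 libraries. Its log2 difference was 0.0090 (95% interval -0.18 to 0.19, limma adjusted p = 0.969), and the sign turned without GNE140 replicate 1 (-0.044) or 3 (-0.013) and without control replicate 2 (-0.011) or 3 (-0.00070). NPC2, the soluble protein that hands cholesterol to NPC1, was at 27.0, 24.3 and 26.3 TPM in GNE140 libraries and at 28.8, 23.5 and 28.2 TPM in control libraries. Replicate 2 was lowest in each group, and control replicates 1 and 3 lay above all GNE140 values. The log2 difference was -0.046 (95% interval -0.24 to 0.15, limma adjusted p = 0.846), and 0.0060 without control replicate 1. A second row with the symbol NPC2 was at 0.59, 0 and 1.04 TPM in GNE140 libraries and at 0, 0.51 and 0.51 TPM in control libraries. It is low, was not tested across genes, and overlapped between the groups (exact 2-sided permutation p = 0.5, smallest possible 0.1). The table lists ENSCAFG00845014286 and ENSCAFG00845021667 for NPC2 without saying which row is which, and near-identical copies can share reads. Within a library the ratio of the more abundant NPC2 row to NPC1 was 1.45 ± 0.0637 in GNE140 cells and 1.51 ± 0.130 in control cells (SD, n = 3 each, exact 2-sided permutation p = 0.6).

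Around these genes, a lysosomal lipase and a lysosomal sterol sensor were called lower, but both calls were lost in most fits that left out a library. Over all rows tested, 1.72% were called lower. In ester storage and release, 5 of 6 genes had a row and were tested, and 1 fell, 0 rose and 4 did not pass (limma, adjusted p under 0.05). It was LIPA, the lysosomal acid lipase that frees cholesterol from lipoprotein esters, at 14.8, 13.6 and 11.4 TPM in GNE140 libraries and 18.4, 18.2 and 19.3 TPM in control libraries. All GNE140 values were below all controls, with a log2 difference of -0.47 (SE 0.094, limma adjusted p = 0.0341). The call was kept without GNE140 replicate 1 and lost without any of the other 5 libraries, with adjusted p of 0.0824 and 0.0879 without GNE140 replicates 2 and 3 and of 0.1004, 0.0745 and 0.0930 without control replicates 1, 2 and 3. It was also lost without a filter on low values (0.0887), without a variance trend (0.0754) and with a replicate block (0.0721).

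In the list of lysosomal and contact-site sterol carriers, 14 of 16 genes were tested, 1 fell, 0 rose and 13 did not pass, with a median log2 difference of -0.046. GPR155, a lysosomal membrane protein that senses cholesterol, was at 16.1 ± 0.512 TPM in GNE140 cells and 20.1 ± 1.04 TPM in control cells (SD, n = 3 each), with a log2 difference of -0.30 (limma adjusted p = 0.0497). It stood just inside the threshold, and leaving out a library gave adjusted p of 0.0824 to 0.181, which ended the call in 6 of 6 fits. 6 other settings also ended it, with adjusted p of 0.0519 to 0.0963.

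**Figure D4:**
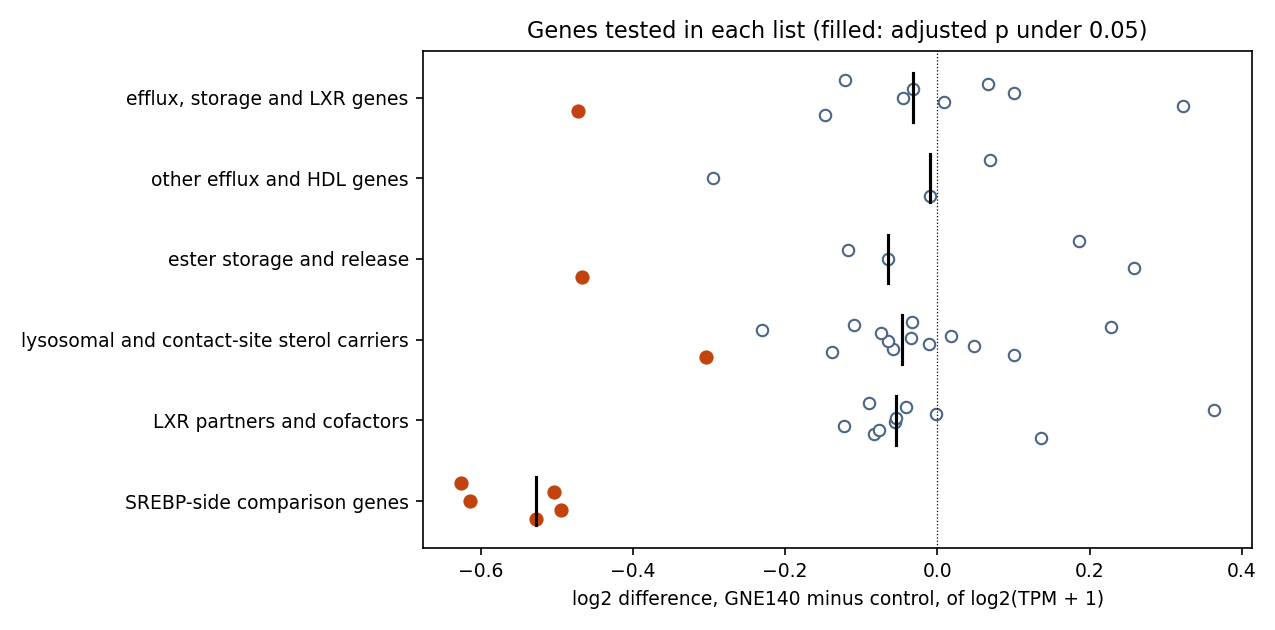
Log2 difference in log2(TPM + 1) between GNE140 and control libraries (horizontal axis) for each tested gene of the efflux, storage and LXR set and of 5 further lists; filled points pass an adjusted p of 0.05 and vertical bars are list medians. All filled points lie left of 0, and the 5 SREBP-side genes, the bottom line, are all filled.

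Genes of the SREBP side, a set linked to the pathway that raises cholesterol synthesis and uptake, are given for scale. SREBF1, SREBF2, INSIG1, SQLE and SCD all fell (5 of 5, limma adjusted p under 0.05), with log2 differences of -0.63 to -0.49 and a median of -0.53. They were picked with earlier results of these data known, so their count is a description. SREBF1 and SCD are both known LXR targets in mouse as well as SREBP-side genes. SREBF1 was at 18.6 ± 1.91 TPM in GNE140 cells and 26.8 ± 1.53 TPM in control cells, and SCD at 82.6 ± 4.91 TPM in GNE140 cells and 117 ± 0.326 TPM in control cells (SD, n = 3 each). The SREBF1 call was lost without GNE140 replicate 3 (limma adjusted p = 0.0528), control replicate 1 (0.0761) or control replicate 3 (0.0549), and also without a filter on low values (0.0556) or a variance trend (0.0509). Beside these 5 genes, the log2 difference was -0.47 for LPCAT3, -0.15 for ABCA1, 0.32 for MYLIP and 0.067 for SMPDL3A.

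The genes whose profile over the 6 libraries was closest to LPCAT3 were DKK2, LOC102152620 and ADM. Closeness was the root mean square difference of centred log2(TPM + 1), which was 0.032, 0.036 and 0.038 for them and had a median of 0.249 over the 8778 genes compared. DKK2, a secreted Wnt pathway modulator, was at 136, 138 and 143 TPM in GNE140 libraries and at 193, 198 and 207 TPM in control libraries. ADM, a vasoactive peptide gene, was at 372, 377 and 366 TPM in GNE140 libraries and at 512, 510 and 543 TPM in control libraries. Each of these genes was lower in all 3 GNE140 libraries by a similar proportion, and each spread little within a group. LOC102152620 was at 7.34 ± 0.370 TPM in GNE140 cells and 10.3 ± 0.632 TPM in control cells (SD, n = 3 each), and its call (limma adjusted p = 0.0298) was lost in 6 of 6 fits that leave out a library, with adjusted p of 0.0602 to 0.0937. They were chosen for this likeness, so their differences are a description.

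Taken as a sum, the 11 rows made up 189.8 to 204 TPM in GNE140 libraries and 189 to 205 TPM in control libraries. GNE140 replicate 2 was the lowest of its group for 5 of the 9 tested genes, and for 55.9% of all rows tested. Control replicate 2 was the lowest of its group for 4 of the 9, and for 44.5% of all rows tested.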

How the data were processed

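PolyA RNA was sequenced from 3 GNE140 and 3 control libraries, made with a directional kit per the labels' protocols. The authors deposited TPM per gene, a length-scaled transcript abundance, rounded and scaled to the same total in each library, so depth is unknown and no count test or counting interval was possible. STAR, RSEM and edgeR 3.42.0 are named in the submitters' processing notes, with no order or settings. The genome build is not given in the sources used here, and coordinates are therefore left out. All 10 genes matched the RefSeq gene table of UU_Cfam_GSD_1.0, used for names and neighbours only. No sequence table was used here.

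Rows with a mean of at least 1 TPM over the 6 libraries (10874 of 20500) were compared on log2(TPM + 1) by limma 3.58.1 (R 4.3.3), fitting the group alone, with variances moderated with a mean trend, 2-sided, and Benjamini-Hochberg adjustment at 0.05 over all rows. Fold changes on this scale understate the change of low genes. Members under 1 TPM and ratios within a library had exact permutation tests. Only the limma step was tested on simulated data, with normally distributed noise, and its recovery of small differences is not reported here. The permutation tests, the ratios and the search for close profiles were not tested in this way. The genes and lists were chosen with earlier results of these data known. All 10 genes are named; of each further list, each called gene is named, or otherwise up to 2 with the smallest p. Endothelial markers outside this rule, neighbours and overlapping genes were named after their values were seen, as were genes in the closing section. Some genes of the further lists, and a list of oxysterol enzymes, are not reported here. Alternative settings were a pseudocount of 0.1 or 5, no filter or one at 5 TPM, 3 scalings, no variance trend, a replicate block, and leaving out each library. Figures were drawn with matplotlib 3.10.9.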

Additional observations from a re-analysis of the deposited data

How the results depend on the processing

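Depth is unknown, so differences of the low genes, above all ABCG1, are limited by the spread of 3 libraries. The count of 329 called rows was 168 without a filter on low values, 159 without a variance trend and 163 with the replicate block. It was 152, 122 and 74 without GNE140 replicates 1, 2 and 3, and 92, 185 and 167 without control replicates 1, 2 and 3 (74 to 185). With the filter kept as set on all 6 libraries, chosen after seeing the data, these counts were 150, 99 and 70 without GNE140 replicates 1, 2 and 3, and 60, 179 and 143 without control replicates 1, 2 and 3. The count of called members was 1 in each of the other 15 settings, LPCAT3 each time, and, with a library left out and the filter kept on all 6 libraries, 0 without GNE140 replicate 3 or control replicate 1 and 1 in the other 4 fits. LPCAT3 had limma adjusted p of 0.00932 to 0.0499 over these 15 settings, and 0.0424 with the replicate block. Same-numbered libraries did not deviate together (correlations of 0.036, 0.0093 and -0.098 for numbers 1 to 3), so the numbers were not taken as pairs. Of 133 recomputed values of the 9 tested members, 126 kept direction and side of the threshold and 7 turned the sign, all with a library left out: NPC2 ran from -0.14 to 0.0060, NPC1 from -0.044 to 0.085 and NR1H3 from -0.16 to 0.12. The sign of NPC1 turned without GNE140 replicates 1 and 3 and control replicates 2 and 3 (-0.044, -0.013, -0.011 and -0.00070), that of NPC2 without control replicate 1, and that of NR1H3 without GNE140 replicate 3 and control replicate 1. The cause was not tested. NR1H3, MYLIP, PPARG and TTC39B have no value with a mean TPM of at least 5. Ratios and members under 1 TPM were recomputed only with a library left out. A common scaling cancels in a ratio but not in a TPM difference, and the other settings were not run for either. Of 78 such values, 6 turned sign, none of them a ratio of LPCAT3. Leaving out 1 of 3 libraries cannot move these values by as much as the spread between replicates, so their size was not judged against it. The log2 ratio difference of NR1H2 to NR1H3 was -0.038 without control replicate 1, and that of SOAT1 to ABCA1 was -0.0018 and -0.0019 without GNE140 replicates 2 and 3 and -0.051 without control replicate 2. The ABCG1 difference was -0.037 TPM without control replicate 1 and that of the second NPC2 row -0.045 TPM without GNE140 replicate 3.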

Other observations

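SLC44A1, a choline transporter next to ABCA1 in the RefSeq annotation, was at 23.0 ± 1.44 TPM in GNE140 cells and 28.6 ± 1.15 TPM in control cells (SD, n = 3 each), and its log2 difference of -0.30 stood just outside the threshold (limma adjusted p = 0.0506). LPL, the lipoprotein lipase, was listed at 0 TPM in all 6 libraries. Both genes were chosen after their values were seen.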
